A study of Mus musculus with 6 samples.

Results

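The 5 genes described here are Prf1, which encodes perforin, and Gzma, Gzmb, Gzmk and Gzmm, which encode granzymes A, B, K and M. They were chosen by name, as 5 of the 32285 genes counted, and all 5 were detected on both days. T cells were sorted as CD3+CD4+ or CD3+CD8+ from intracranial tumours of CT2A, a mouse glioma line, grown in wild-type (WT) C57BL/6J mice of 6 to 8 weeks. The early group is day 13, with 16 mice pooled by 4 for each replicate, and the late group is day 19, with 4 mice. No treatment is named in the labels. Each day was 1 capture of 10x 5′ single-cell chemistry with RNA, antibody-tag and T cell receptor (TCR) libraries, and no label ties a cell to an animal. Each matrix also held 4 multiplexing tags, which the labels tie to no mouse or pool, so they were not used to divide the cells. Each day was therefore treated as 1 sample, no test between days was made, and no p-value is given. Every interval below is a 95% interval that covers counting error only.

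Cytotoxic T cells and natural killer (NK) cells store perforin and granzymes in lytic granules and release them onto a target cell. Perforin forms pores in the target membrane, and granzymes are serine proteases that enter through them. Granzyme B cleaves caspases and their substrates and so starts apoptosis. Granzymes A and K are closely related tryptases, and granzyme M cleaves after methionine and is known mainly from NK and innate-like lymphocytes. In tumours, CD8 T cells that see antigen for a long time acquire the receptors PD-1 (Pdcd1) and TIM-3 (Havcr2) and lose the transcription factor TCF-1 (Tcf7), a course called exhaustion. The series title names this step from progenitor to terminal exhaustion in glioblastoma as the study's question.

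The promoter windows of 4 members are shown because Gzma and Gzmk, neighbours on chromosome 13 with 70.6 kb between the genes, exceeded the joint share of independent genes by the largest ratio of all pairs in CD8 T cells on both days, while Prf1 and Gzmb were distributed differently. The windows run from 250 bases before to 50 bases after the annotated start, are taken from RefSeq on GRCm38.p6 (the submitters' processing notes name mm10, the same assembly), and read 5′ to 3′ on the gene's strand. All 5 members matched the table, Gzmm with 2 windows. Capitals mark matches on either strand to 6 motifs: a RUNX core (TGTGGT), a T-box motif (GGTGTG), AP-1 (TGANTCA), CRE (TGACGTCA), TCF (TTCAAAG) and GAS (TTCNNNGAA). The Prf1 window is chr10:61297586-61297885 (plus strand), the Gzmb window chr14:56262285-56262584, the Gzma window chr13:113100932-113101231 and the Gzmk window chr13:113180916-113181215, all 3 on the minus strand.
Prf1: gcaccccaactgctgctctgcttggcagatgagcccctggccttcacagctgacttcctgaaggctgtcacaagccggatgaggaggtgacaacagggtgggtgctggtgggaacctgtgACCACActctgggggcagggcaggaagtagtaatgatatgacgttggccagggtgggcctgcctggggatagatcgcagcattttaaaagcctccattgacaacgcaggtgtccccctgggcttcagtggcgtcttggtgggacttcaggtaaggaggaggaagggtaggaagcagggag
Gzmb: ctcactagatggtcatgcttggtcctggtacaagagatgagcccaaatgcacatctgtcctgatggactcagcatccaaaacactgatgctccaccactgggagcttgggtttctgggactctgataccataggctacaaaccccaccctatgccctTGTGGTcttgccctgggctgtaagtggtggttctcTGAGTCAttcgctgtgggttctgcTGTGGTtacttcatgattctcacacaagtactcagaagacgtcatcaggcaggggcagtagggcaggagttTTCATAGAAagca
Gzma: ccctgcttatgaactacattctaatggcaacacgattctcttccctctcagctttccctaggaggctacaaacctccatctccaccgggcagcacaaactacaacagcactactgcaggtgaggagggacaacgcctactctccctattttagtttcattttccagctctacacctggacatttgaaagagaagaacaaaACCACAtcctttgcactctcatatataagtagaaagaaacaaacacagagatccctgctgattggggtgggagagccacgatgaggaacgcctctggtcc
Gzmk: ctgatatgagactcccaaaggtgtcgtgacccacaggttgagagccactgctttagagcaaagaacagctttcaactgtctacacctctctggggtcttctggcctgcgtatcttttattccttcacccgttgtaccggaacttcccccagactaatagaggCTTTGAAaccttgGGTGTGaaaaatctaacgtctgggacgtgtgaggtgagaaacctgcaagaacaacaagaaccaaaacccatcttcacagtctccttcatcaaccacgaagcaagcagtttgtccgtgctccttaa
The RUNX core was found once in the Prf1 window, at -130 from the start, once in the Gzma window, at -50, and at -93 and -34 in the Gzmb window, and 16.7% of 32544 windows of 300 bases hold it. The Gzmb window also held an AP-1 match at -58 (7.79% of windows) and a GAS match at 37 (8.33%). The Gzmk window held no RUNX core but a TCF match at -88 (5.15%) and a T-box match at -75 (19.0%). The Gzmm windows, at chr10:79688770-79689069 and chr10:79693576-79693875, held a RUNX core and a GAS match in the first and a T-box match in the second. CRE, present in 1.8% of windows, was found in none of the 6. A match is a string of letters and not a binding site.

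Cells were barcodes with at least 5000 gene UMIs and at most 10% mitochondrial UMIs, a UMI (unique molecular identifier) being 1 captured RNA molecule. Day 13 gave 8878 such barcodes (median depth 9500.5 UMIs) and day 19 gave 4667 (median depth 11214). The classes used the cells that lay in 1 of the 4 TCR tables of their day, here called contig sets. Outside the sets lay 4246 and 1452 barcodes, of which 3102 and 1062 held a T cell mark (median depth 16111.5 and 24607.5 UMIs). These took no part in the comparisons. CD8 T cells carried Cd8a or Cd8b1 RNA but no Cd4 UMI (2959 and 1800 cells), and CD4 T cells the reverse (797 and 794). The sets are not replicates with a known source, and 8.33% to 26.7% of expanded clonotypes at day 13 and 38.8% to 66.7% at day 19 recurred in another set of the day, so the range over sets is given as a description. The 2 captures shared 62 barcodes. RNA of other cell types was present: the myeloid list of 9 genes, with no gene at 0, summed to 3606 to 7168 CPM (UMIs of a gene scaled to a common total) in the CD8 sets at day 13 and 3422 to 8297 at day 19, and to 16009 to 20100 and 14548 to 26595 in the CD4 sets. The NK list (Ncr1, Klrb1c, Eomes, Tyrobp and Fcer1g) summed to 602 to 939 and 999 to 1232 CPM in CD8 and to 1882 to 2378 and 1634 to 2823 in CD4 sets, and part of this list is also expressed by T cells or myeloid cells. A dendritic cell list was lower at day 19, at 809 to 1214 and 336 to 733 CPM in CD8 and 1240 to 1611 and 623 to 1081 in CD4 sets. A gamma-delta list was higher in CD8 sets, at 29.1 to 45.1 and 48.4 to 64.1, and overlapped in CD4 sets. The B cell list overlapped in both classes. The part of these RNAs in the day differences was not tested.

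All 5 genes were higher in CD8 than in CD4 T cells on both days and in 4 of 4 sets when the class was read from RNA. Perforin was at 58.5 CPM in CD8 and 7.37 in CD4 T cells at day 13 (log2 ratio 2.99, 2.62 to 3.39), and at 118.7 and 12.6 at day 19 (3.24, 2.98 to 3.51). Granzyme B had the smallest of the 5 ratios, 1386 against 457 CPM at day 13 (1.60, 1.55 to 1.65) and 1466 against 566 at day 19 (1.37, 1.33 to 1.41). The ratios of Gzma were 2.56 and 3.81, the latter 2.83 without set 2 and 4.52 without set 4, and those of Gzmk 2.26 and 2.37. Gzmm, with 14 and 3 UMIs in all CD4 T cells, gave 2.92 (2.16 to 3.81) and 4.22 (2.64 to 6.52), with 4.29 at day 13 without set 3 and 3.51 or 5.21 at day 19 without set 2 or set 4. Called here and below means at least 2-fold with at least 100 UMIs over both sums. By this rule 5 of 5 members were called on both days, beside 13.2% of 10321 genes at day 13 and 13.1% of 10233 at day 19. Without the cells that held 3 or more UMIs of myeloid genes, 5 members were called at day 13 and 4 at day 19. With class from antibody tags 3 and 4 members were called, the ratio of Gzmk at day 13 was -0.61, which is the opposite direction, and that of Gzmm at day 19 was 0.10. These tags placed only 11 and 54 cells as CD4, and they placed 128 and 83 of the CD4 T cells by RNA as CD8 and 5 and 27 of them as CD4.

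**Figure D1:**
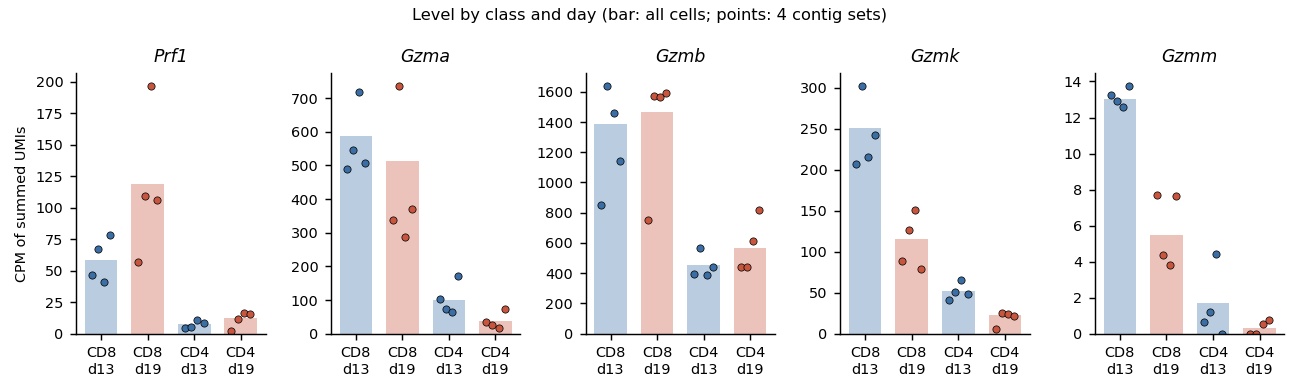
CPM of summed UMIs (vertical axes, each gene on its own scale) in CD8 and CD4 T cells at day 13 (d13, blue) and day 19 (d19, red). Bars are all cells of the class and points are the 4 contig sets of the day; every CD8 bar stands above the CD4 bar of its day, and the day-19 points of Gzmk and Gzmm in CD8 lie below those of day 13.

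Between the days, the CD8 T cells had more perforin RNA, less granzyme K and M RNA, and granzyme A and B RNA within 2-fold. Perforin was at 46.6, 67.5, 41.1 and 78.6 CPM in the 4 sets of day 13 and at 56.6, 109.4, 196.8 and 106.3 in those of day 19. The sets overlapped, since the lowest day-19 set lay within the day-13 range. The pooled log2 ratio of day 19 to day 13 was 1.02 (0.93 to 1.11), and it was 0.77 without the highest set of day 19, 0.83 and 0.98 without set 3 or set 1 of day 13, 0.83 without cells that held 3 or more myeloid UMIs and 0.69 in barcodes with exactly 1 TRA and 1 TRB chain. Gzmk was at 207.2, 302.5, 215.1 and 242.8 CPM at day 13 and at 88.8, 126.7, 150.8 and 79.4 at day 19. Every day-19 set was below every day-13 set, and the pooled values were 250.8 and 115.7 (-1.12, -1.18 to -1.05, and -0.94 or -0.99 without set 2 of day 13 or set 4 of day 19). Gzmm was at 13.3, 12.9, 12.6 and 13.8 CPM and then at 7.69, 4.38, 3.83 and 7.65. It did not overlap either, from 371 and 117 UMIs (-1.26, -1.57 to -0.95).

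Granzyme A was at 488, 546, 718 and 508 CPM in the day-13 sets and at 337, 737, 286 and 369 in those of day 19. 3 of the 4 day-19 sets lay below every day-13 set and set 2 lay above them, and the pooled ratio was -0.19 (-0.23 to -0.16). It was -0.82 when set 2 of day 19 was left out. Granzyme B was at 853, 1641, 1457 and 1139 CPM and then at 752, 1572, 1566 and 1594, with a ratio of 0.08 (0.06 to 0.10). In all, 3 of 5 members were called in CD8 T cells, beside 3.25% of 10638 genes. When each cell was thinned to 5000 UMIs the ratios of Gzmk and Gzmm were -0.94 and -0.80, and without cycling cells they were -0.99 and -0.94, so that 1 member was called in either case. The cycling pair Mki67 and Top2a summed to 211.5 CPM at day 13 and 326.5 at day 19, and its part in the change was not tested beyond this.

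In CD4 T cells, Gzma was at 102.5, 73.3, 65.7 and 170.7 CPM in the sets of day 13 and at 34.1, 25.2, 16.4 and 74.1 in those of day 19, and the ranges overlapped. Pooled, it was at 99.3 and 36.6 CPM (-1.44, -1.62 to -1.26, and -2.04 without set 4 of day 19). Gzmk was at 52.4 and 22.4 CPM (-1.23, -1.46 to -0.99), with sets of 40.6 to 65.2 and 6.20 to 25.8 that did not overlap. Both were called, beside 3.2% of 9426 genes, and neither was past 2-fold without cycling cells (-0.64 and -0.94), where Prf1 was the 1 member called. Gzmb was at 457 and 566 CPM (0.31), Prf1 at 7.37 and 12.6 (0.77, 0.32 to 1.24), and Gzmm rested on 14 and 3 UMIs.

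The share of CD8 T cells with a UMI followed the same course once each cell was thinned to 5000 UMIs, which no cell fell short of. Perforin was found in 16.9% (15.6% to 18.3%) of CD8 T cells at day 13 and in 24.7% (22.7% to 26.8%) at day 19. Gzma was found in 25.0% (23.5% to 26.6%) and 11.6% (10.1% to 13.1%), so the share of cells moved more than the level did. Gzmb was found in 55.2% and 61.3%, Gzmk in 34.8% and 24.0%, and Gzmm in 5.10% and 2.89%. Unthinned shares were 25.5% and 36.2% for Prf1, 29.1% and 13.8% for Gzma, 60.3% and 68.0% for Gzmb, 39.4% and 31.6% for Gzmk, and 7.47% and 4.06% for Gzmm. As a background, myeloid-marked cells outside the contig sets (577 and 207 cells, median 8957 and 9414 UMIs) held, after the same thinning, Prf1 in 0.520% (0.107% to 1.51%) and 1.93% (0.529% to 4.87%), Gzma in 1.91% and 2.42% (0.789% to 5.55%), Gzmb in 2.60% and 4.83%, and Gzmk in 0 cells and 0.483%. Thinned Gzmm was found in 0 of 577 and 0 of 207 of them, which allows shares of up to 0.637% and 1.77%. The thinned share of CD4 T cells with Prf1 was 2.26% (1.34% to 3.55%) and 3.15% (2.05% to 4.61%), with an interval that overlapped the background's on both days. With Gzma it was 7.65% (5.90% to 9.72%), above the background's interval, and 4.03% (2.77% to 5.64%), overlapping it. Gzmb was found in 21.8% and 32.5% of CD4 T cells, Gzmk in 10.8% and 5.29%, and Gzmm in 4 and 2 cells.

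Most granzyme A UMIs were held by few CD8 T cells. The 5% of CD8 T cells with the most Gzma UMIs held 72.8% of its UMIs at day 13 and 96.0% at day 19, against 46.0% and 44.0% for Gzmb, 56.0% and 56.6% for Prf1, and 38.9% and 44.6% for Gzmk. The shares of Gzmm were 80.3% and 100%, from 371 and 117 UMIs in 7.47% and 4.06% of cells. Cells with at least 20 Gzma UMIs among their 5000, a threshold chosen after the values were seen, made up 3.45% of CD8 T cells at day 13 (102 cells) and 2.94% at day 19 (53 cells). They held 57.4% and 84.9% of the Gzma UMIs, while the cells with 1 to 19 UMIs went from 21.6% to 8.61% of CD8 T cells. In the Gzma-rich cells Gzmb was at 6248 and 5876 CPM, against 711 and 1199 in cells without Gzma, and Gzmk was at 668 and 574 against 154 and 86.6. Prf1 differed less, at 85.2 and 201.6 against 57.6 and 118.0 CPM. Gzmm was higher in the rich cells at day 13, at 29.2 against 10.0 CPM, and lower at day 19, at 1.56 against 4.83. Klrg1, a receptor of short-lived effector T cells, was found in 21.6% and 15.1% of the rich cells and in 1.44% and 1.07% of those without Gzma. Tcf7 was found in 18.6% and 5.66% against 59.1% and 37.0%, and Pdcd1 in 61.8% and 79.2% against 30.1% and 41.8%. The rich cells with 1 TRA and 1 TRB chain (87 of 102 and 37 of 53) belonged to 60 and 26 clonotypes, of which the largest held 11 and 5 of them. Set 2 held 46 of the 102 rich cells at day 13 and 35 of the 53 at day 19. Of NK genes, Ncr1 was found in 4.90% and 0% of the rich cells and Klrb1c in 4.90% and 18.9%, against 0.135% and 0.0628%, and 4.37% and 8.73%, of cells without Gzma. Tyrobp, also on the NK list, was found in fewer of the rich cells, 14.7% and 15.1% against 18.1% and 24.7%. The NK list summed to 442 and 999 CPM in the rich cells, 587 and 1303 in those with 1 to 19 UMIs and 775 and 1146 in those without Gzma. The myeloid list summed to 1379 and 1225 CPM in the rich cells, 3650 and 4843 in those with 1 to 19 UMIs and 5072 and 4826 in those without. The part of these RNAs in the differences was not tested. The median depths of rich cells and those without Gzma were 10437.5 and 10513 UMIs against 7297 and 9797.

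PD-1 state was read from the thinned UMIs. Pdcd1-positive CD8 T cells (1010 at day 13 and 770 at day 19) had more Prf1, Gzma, Gzmb and Gzmk than Pdcd1-negative ones (1949 and 1030), in 4 of 4 sets on both days. Prf1 was at 99.5 against 32.1 CPM at day 13 (1.63, 1.48 to 1.78) and at 187.7 against 56.8 at day 19 (1.72, 1.59 to 1.86). Gzma was at 859 against 412 (1.06) and at 812 against 245 (1.73), and Gzmb at 2145 against 897 (1.26) and 2091 against 907 (1.21). Gzmk was at 398 against 156 (1.35) and at 179 against 58.8 (1.61). Granzyme M went the other way, at 11.1 against 14.3 CPM (-0.36, -0.68 to -0.04) and at 1.18 against 9.28 (-2.97, -3.97 to -2.11, from 12 and 105 UMIs), lower in 4 of 4 sets on both days. At day 13, 4 members were called, beside 4.78% of 9793 genes, and at day 19, 5, beside 5.25% of 9359. The state depends on which UMIs a thinning draws: over 6 draws the ratio of Gzma at day 13 ran from 0.80 to 1.06, with 3 draws past 2-fold (and 0.92 without set 3), and that of Gzmb at day 19 from 0.94 to 1.29, with 5 past it. The depths also differed, with medians of 8463.5 against 7115 UMIs at day 13 and 11486 against 8789 at day 19.

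Among the Pdcd1-positive cells, those with a Tcf7 and no Havcr2 UMI are called progenitor-like (329 cells, 11.1% of CD8 T cells, at day 13 and 103 cells, 5.72%, at day 19) and those with a Havcr2 and no Tcf7 UMI terminal-like (145 cells, 4.90%, and 228 cells, 12.7%). Perforin was higher in the terminal-like cells of every set. In the 4 sets of day 13 it was at 47.5, 35.7, 27.8 and 26.3 CPM in progenitor-like cells and at 208.3, 414, 119.3 and 283 in terminal-like cells. At day 19 it was at 10.7, 13.4, 11.6 and 14.9 CPM in the former and at 166.5, 205.0, 637 and 456 in the latter. The states did not overlap on either day, and the pooled ratios were 3.02 (2.69 to 3.35) and 4.72 (3.99 to 5.56). Over 6 thinning draws they ran from 2.40 to 3.02 and from 3.73 to 4.72, so the draw used here lies at the upper end on both days. Without set 2 of day 19 the ratio of that day was 5.34.

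Granzyme B was at 2662 CPM in terminal-like and 1111 in progenitor-like cells at day 13 (1.26, 1.01 to 1.57 over the draws). Set 1 went the other way, at 806 and 1093, the ranges of the sets overlapped, and without set 2 the ratio was 0.94. At day 19 Gzmb was at 3171 and 354 CPM (3.16, 2.64 to 3.16 over the draws), higher in 4 of 4 sets. Granzyme A was at 721 and 443 (0.70, 0.63 to 1.36 over the draws) and then at 1055 and 77.1 (3.77, 3.55 to 4.67 over the draws, and 4.83 without set 3). At day 13 its sets overlapped, and 2 of 6 draws put it past 2-fold. Its day-13 ratio was 0.02 without set 3, which had 1359 CPM in terminal-like cells, 1.35 without set 2, and -0.15 with class from antibody tags. Granzyme K had a ratio of 0.25 at day 13 (0.17 to 0.53 over the draws). At day 19 it was at 203 and 139 CPM (0.55, 0.26 to 0.55 over the draws). The latter was 1.19 without set 3, whose progenitor-like cells had 353 CPM against 52.2 to 110 in the other sets, and 1.35 with class from antibody tags. Granzyme M was at 2.72 and 19.5 CPM from 5 and 55 UMIs at day 13 (-2.84, -3.82 to -1.58 over the draws and -3.96 to -2.26 as sets were left out), lower in the terminal-like cells of 4 of 4 sets, and rested on 3 and 4 UMIs at day 19. Of the 5 members 2 were called at day 13, beside 6.39% of 5497 genes, and 3 at day 19, beside 6.63% of 5113. The NK list summed to 697 CPM in terminal-like and 393 in progenitor-like cells at day 13 and to 1650 and 582 at day 19, with 1 of its 5 genes at 0 in terminal-like cells on both days. The myeloid list summed to 4745 and 2412 CPM and to 3533 and 3148. Their part in the differences was not tested.

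**Figure D2:**
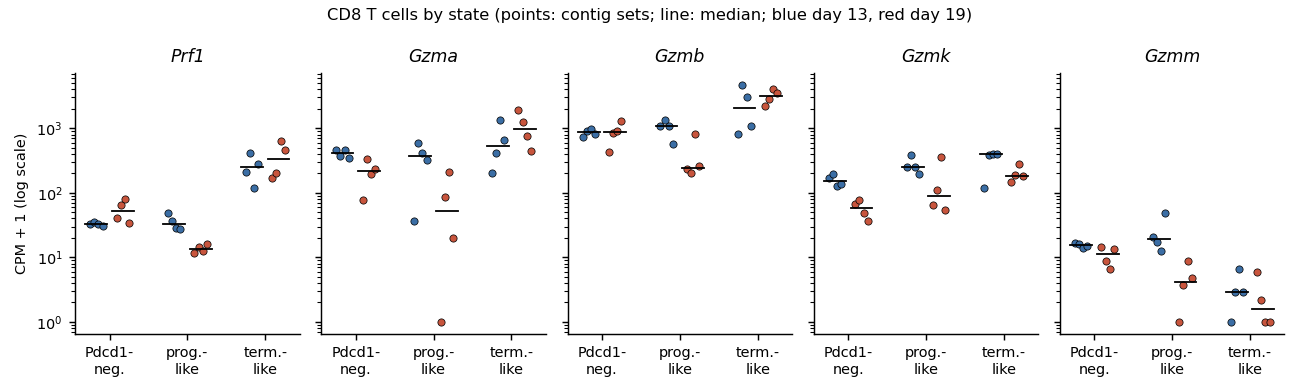
CPM plus 1 on a log axis in Pdcd1-negative, progenitor-like and terminal-like CD8 T cells. Each point is 1 contig set (blue day 13, red day 19) and each line is the median of the sets. Prf1 in terminal-like cells stands above progenitor-like cells on both days, while the Gzmk points of the 2 states overlap.

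Followed from day 13 to day 19 within a state, Gzma and Gzmb were lower at day 19 in progenitor-like cells in each of the 6 draws, and the difference between the states was not tested. In progenitor-like cells Gzma had a ratio of -2.52 (-2.84 to -2.21) and Gzmb of -1.65, and both stayed past 2-fold in 6 of 6 draws. The draws reuse the same cells, and the sets of the 2 days overlapped for both genes. Gzma was at 35.7 to 594 CPM in the sets of day 13 and at 0 to 209 in those of day 19. Gzmb was at 578 to 1327 and at 203 to 806. Without set 3 of day 19 the ratios of Gzma, Gzmb and Gzmk were -3.46, -2.29 and -1.92. Prf1 had -1.36 and Gzmk -1.11, but over the draws these ran from -1.36 to -0.40 and from -1.11 to -0.54, past 2-fold in 2 and 1 of 6. Gzmm had -2.52 from 4 and 55 UMIs and so was not called. In the draw used 4 members were called, beside 5.34% of 4942 genes, and in the other 5 draws 2 to 3. In terminal-like cells Prf1 had a ratio of 0.34 (0.34 to 0.92 over the draws), Gzma of 0.55 (0.55 to 0.93 over the draws) and Gzmb of 0.25 (0.18 to 0.53 over the draws). The ratio of Gzma was past 2-fold without set 3 of day 13 (1.19), without cells that held 3 or more myeloid UMIs (1.04), in barcodes with 1 TRA and 1 TRB chain (1.03) and by antibody tags (1.39). That of Prf1 ran from -0.09 to 0.93 as sets were left out, the latter without set 2 of day 19, and that of Gzmb from -0.06 to 0.79. The sign changed under 2 settings for Prf1 and under 1 for Gzmb. Gzmk had -0.81 (-1.105 to -0.68 over the draws), past 2-fold in 1 of 6 draws as in progenitor-like cells, and Gzmm rested on 3 and 5 UMIs (-1.46). In the draw used 0 members were called, beside 3.34% of 5601 genes.

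Clone size was counted in barcodes with exactly 1 TRA and 1 TRB chain, as cells of 1 set with the same pair of CDR3 nucleotide sequences. Expanded means at least 3 cells and single means 1. Because size was counted within 1 set, a cell counted as single may belong to a clonotype that also occurs in another set. Expanded CD8 T cells (518 at day 13 and 342 at day 19) had more Prf1 than single ones (1486 and 759), at 144.4 against 33.7 CPM (2.10, 1.93 to 2.27) and 244.7 against 37.5 (2.71, 2.52 to 2.89), in 4 of 4 sets on both days. From clonotypes of 1 cell to those of 2, 3 to 4, 5 to 9 and 10 or more cells, Prf1 was at 33.7, 64.2, 74.6, 206 and 142 CPM at day 13 and at 37.5, 108, 127, 211 and 302 at day 19. The day-19 values rose at each step, and those of day 13 rose up to 5 to 9 cells. Gzmb was at 2247 against 1062 CPM (1.08) and 1921 against 883 (1.12), in 4 of 4 sets on both days, but without set 2 of the day the ratios were 0.48 and 0.77. Gzmk was at 458 against 166 (1.46), in 3 of 4 sets, and 172 against 61.7 (1.48), in 4 of 4. Gzma was at 937 against 495 CPM at day 13 (0.92, 0.87 to 0.97), in 4 of 4 sets, and at 1046 against 317 at day 19 (1.72), in 3 of 4, where the ratio was 0.71 without set 2. Over the same steps of size, Gzma at day 19 was at 317, 195, 1887, 1612 and 430 CPM and so did not rise steadily. Gzmm was lower in expanded cells, at 6.81 against 13.9 CPM (-1.03, -1.56 to -0.54, and -0.89, -2.28 or -0.67 without set 1, 2 or 4) and at 2.06 against 7.75 (-1.91, from 9 and 63 UMIs and so not called, and -4.50 to -1.24 as sets were left out). In the 5 clonotypes of 10 or more cells at day 19 Gzmm had no UMI, and 3 UMIs would have been 1.33 CPM. On each day 4 members were called, beside 5.49% of 9100 genes at day 13 and 6.48% of 8182 at day 19.

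Of the expanded CD8 T cells 372 of 518 at day 13 and 258 of 342 at day 19 were Pdcd1-positive, and of the single ones 320 of 1486 and 150 of 759, so both were crossed. Within Pdcd1-positive cells Prf1 was at 168.7 CPM in expanded and 60.3 in single cells at day 13 and at 261.5 and 84.6 at day 19. Within Pdcd1-negative cells it was at 77.4 and 24.4 and at 194.3 and 24.5, so expanded cells were higher at either Pdcd1 state. Gzma was higher in expanded cells too, within Pdcd1-positive cells at 949 against 870 CPM and at 1176 against 915, and within Pdcd1-negative cells, where the gap was wider, at 904 against 364 and at 655 against 152. Gzmb was at 2414 against 1989 and 2027 against 1612 CPM in Pdcd1-positive and at 1789 against 739 and 1601 against 682 in Pdcd1-negative cells. Gzmk was at 460 against 360 CPM in Pdcd1-positive cells at day 13, at 162 against 189 at day 19, the 1 case in which it was lower in expanded cells, and at 452 against 98.2 and 204 against 26.5 in Pdcd1-negative cells. Gzmm was at 5.44 against 14.6 CPM in Pdcd1-positive and 10.6 against 13.7 in Pdcd1-negative cells at day 13, and its expanded cells at day 19 held 4 and 5 UMIs.

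**Figure D3:**
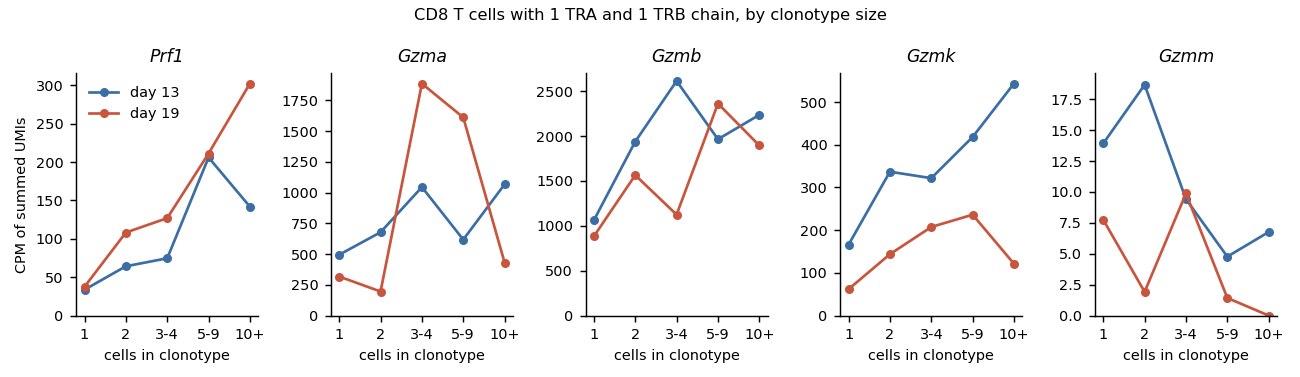
CPM of summed UMIs in CD8 T cells by the number of cells in their clonotype, day 13 in blue and day 19 in red, each gene on its own scale. Prf1 is lowest in clonotypes of 1 cell on both days and Gzmm is at 0 in day-19 clonotypes of 10 or more cells.

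Single large clonotypes differed among themselves. The 14 CD8 clonotypes of at least 10 cells at day 13 (252 cells) ran from 12.9 to 3673 CPM of Gzma, with a median of 404, while Gzmb ran from 687 to 5278, Gzmk from 164 to 1023 and Prf1 from 37.4 to 459. Gzmm was at 0 in 8 of the 14. In the 5 CD8 clonotypes of day 19 (178 cells) Gzma ran from 0 to 3476 CPM, Gzmb from 1498 to 2976, Prf1 from 121 to 457 and Gzmk from 1.36 to 216, and Gzmm was at 0 in 5 of 5. A high Gzma level could come from most cells of a clone or from very few. In the third largest CD8 clonotype of day 13, 24 of 29 cells held Gzma (3399 CPM), and in the sixth largest, with 3673 CPM, only 4 of 19. The largest CD8 clonotype of day 19, with 71 cells in set 2, had no Gzma UMI (3 UMIs would have been 4.07 CPM), 1.36 CPM of Gzmk, 1498 of Gzmb and 121 of Prf1. The 3 CD4 clonotypes of at least 10 cells, all at day 19, had 0 to 5 UMIs of Gzmb.

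**Figure D4:**
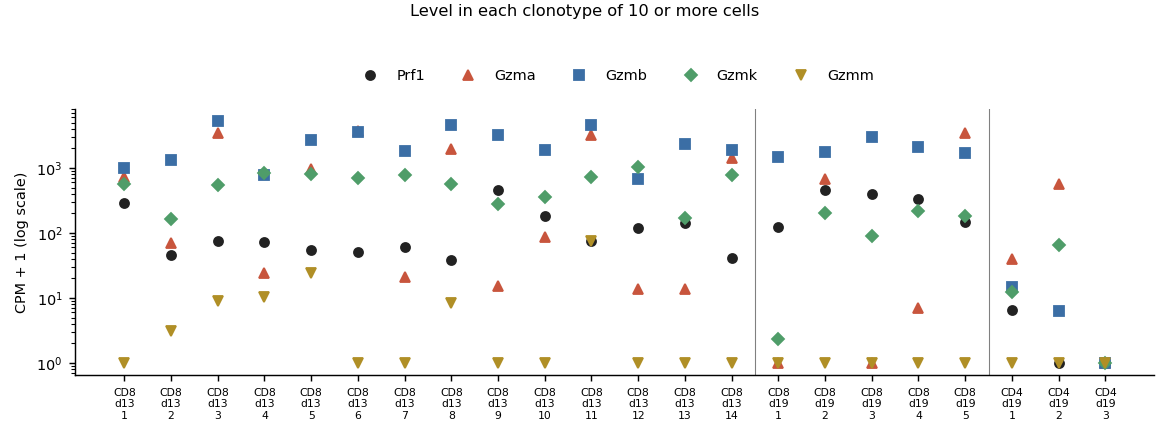
CPM plus 1 on a log axis for each clonotype with at least 10 cells, ordered by class, day and size; each symbol is 1 gene. Gzma runs from 0 to 3673 CPM, while Gzmb is at 687 CPM or more in every CD8 clonotype and near the foot of the axis in the 3 CD4 ones.

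The receptor of the largest day-13 CD8 clonotype (32 cells in set 4) and those of no. 2 and no. 3 by size of day 19 (47 cells in set 3 and 27 in set 2) used the same segments, TRAV7D-2, TRAJ7 and TRBV16. Their CDR3 nucleotide sequences are printed because they allow similar receptors of the 2 days to be compared. Descent from 1 clone is not shown by them. Capitals are not used in them.
Day 13, no. 1, TRA: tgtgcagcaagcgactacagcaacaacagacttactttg
Day 19, no. 2, TRA: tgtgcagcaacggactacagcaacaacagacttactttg
Day 13, no. 1, TRB: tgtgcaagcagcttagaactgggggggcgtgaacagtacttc
Day 19, no. 2, TRB: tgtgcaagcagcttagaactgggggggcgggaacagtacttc
Day 19, no. 3, TRB: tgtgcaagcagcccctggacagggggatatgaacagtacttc
Counted from the first base of the CDR3, and with the base of no. 1 of day 13 first, no. 2 of day 19 differed by G11C and C12G in the 39 bases of TRA and by T30G in the 42 bases of TRB. No. 3 had the same TRA sequence as no. 2. Over all CD8 T cells with these 3 segments, a group chosen after the values were seen, there were 36 cells of 4 clonotypes at day 13 and 76 of 3 clonotypes at day 19. Gzma was found in 44.4% (27.9% to 61.9%) of them at day 13 and in 1.32% (0.0333% to 7.11%), which is 1 cell, at day 19. Gzmk was found in 91.7% and 35.5%. Prf1 was found in 58.3% (40.8% to 74.5%) and 76.3% (65.2% to 85.3%) and Gzmb in 83.3% and 86.8%, intervals that overlapped, and Gzmm in 0 of 36 and 0 of 76, which allows up to 9.74% and 4.74%. The level of Prf1 was 274 CPM and then 433, and that of Gzmb 973 and then 2085. Gzmk was at 543 and then 165 CPM. The level of Gzma moved less than its share of cells, from 754 to 466 CPM, and at day 19 it was 0 in set 2 and 683 in set 3, which held the 1 cell found positive after thinning. Nearly all day-13 cells came from set 4 (33 of 36), their median depth was 20377 UMIs against 12299.5 at day 19, and whether the days or the sets differ cannot be told apart.

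Joint positivity was read in CD8 barcodes with 1 TRA and 1 TRB chain, 2135 at day 13 and 1179 at day 19. Beside each joint share stands the product of the 2 single shares, which is the share that would be found if the genes were spread over the cells independently. Gzma and Gzmk were found together in 15.7% (14.2% to 17.3%) of cells at day 13 against a product of 9.02%, a ratio of 1.74, and in 5.68% (4.43% to 7.16%) against 2.41% at day 19, a ratio of 2.36. Put the other way, 63.0% of Gzma-positive and 27.3% of Gzma-negative cells held Gzmk at day 13, and 50.8% and 17.9% at day 19. Gzma and Gzmb were found together in 21.5% against 14.1% and in 9.16% against 6.69%. Gzmb and Gzmk were found together in 28.7% against 20.5% and in 17.1% against 12.9%. Perforin was found with Gzma in 5.57% (4.64% to 6.63%) against 4.49%, and in 2.88% (2.01% to 4.01%) against 2.57%, the latter inside the interval. With Gzmb it was found in 13.7% against 10.2% and in 18.2% against 13.7%, and with Gzmk in 9.65% against 6.53% and in 8.57% against 4.95%. The pairs with Gzmm rested on 103 and 37 Gzmm-positive cells. Their ratios to the product ran from 1.20 (with Gzmb) to 1.67 (with Prf1) at day 13 and from 0.94 (with Prf1, 0.679% against 0.721%) to 1.93 (with Gzma) at day 19. All these cells stood at 5000 UMIs after thinning.

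**Figure D5:**
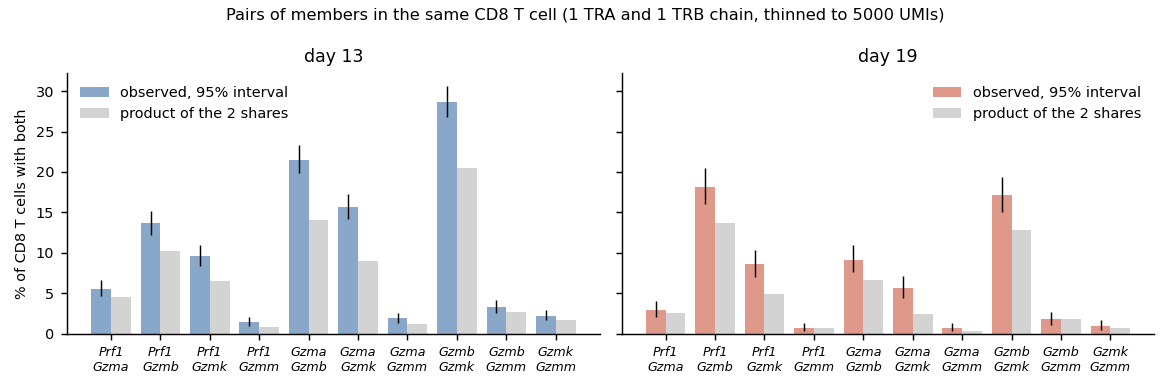
Share of CD8 T cells (percent, 1 TRA and 1 TRB chain) with a UMI of both genes of each pair, coloured bars with 95% binomial intervals, beside the product of the 2 single shares in grey, for day 13 (left) and day 19 (right). The coloured bar of Gzma with Gzmk stands clear of its product on both days, and that of Prf1 with Gzma at day 19 does not.

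Counted by combination, 29.9% of these CD8 T cells held none of the 5 genes at day 13 and 29.7% at day 19. Cells with exactly 1 went from 27.2% to 36.6%, and cells with 3 from 17.1% (15.6% to 18.8%) to 8.74% (7.19% to 10.5%). The combination of Gzma, Gzmb and Gzmk went from 10.1% to 2.80%, Gzmb alone from 16.5% to 27.9%, and Prf1 with Gzmb alone from 3.61% to 10.2%. All 5 together were found in 8 cells at day 13 and in 0 at day 19, where the upper limit is 0.312%. Of the CD4 T cells with 1 TRA and 1 TRB chain, 66.0% and 65.5% held none of the 5, and 7 and 6 cells held 3 of them.

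Within CD4 T cells, Foxp3, the transcription factor of regulatory T cells, split the granzymes. Foxp3-positive cells (186 at day 13 and 231 at day 19) had more Gzmb than Foxp3-negative ones (611 and 563), at 1113 against 252.7 CPM (2.14, 2.04 to 2.23) in 4 of 4 sets and at 973 against 362.5 (1.42, and 0.93 without set 4) in 3 of 4. They had less Gzmk, at 16.5 against 63.6 CPM (-1.94, -2.51 to -1.42, and -2.71 without set 2) in 4 of 4 sets and at 1.75 against 32.8 (-4.23, -5.69 to -3.08, from 6 and 224 UMIs, and -5.12 to -3.16 as sets were left out) in 3 of 4. With class from antibody tags, which left 11 and 54 CD4 cells, the ratios of Gzmk were -0.40 and -0.66 and that of Gzma at day 13 was 1.01, the opposite direction. Gzma was at 26.3 against 122.1 CPM (-2.21, and -3.31 without set 4) in 4 of 4 sets at day 13. At day 19 it was at 20.7 against 44.6 (-1.11, and -1.88 to -0.48 as sets were left out), but 2 sets lay either way, and without cells that held 3 or more myeloid UMIs the ratio was 0.42, which is the opposite direction. Prf1, from 10 and 50 UMIs at day 13 and 43 and 86 at day 19, had ratios of -0.64 (-1.79 to 0.36) and -0.01 (-0.57 to 0.54). As sets were left out they ran from -1.42 to -0.20 and from -0.46 to 0.69, and the sign at day 19 changed under 14 settings. Gzmm had 1 and 13 UMIs at day 13 and 0 and 3 at day 19. On each day 3 members were called, beside 2.51% of 7420 genes at day 13 and 2.3% of 8127 at day 19. The myeloid list summed to 15638 CPM in Foxp3-positive and 18243 in Foxp3-negative cells at day 13 and to 16859 and 17191 at day 19.

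Expanded CD4 T cells could be described at day 19 (213 against 277 single cells), where Gzma was at 81.2 against 7.34 CPM (3.47, 2.87 to 4.12, and 2.74 to 4.68 as sets were left out), in 3 of 4 sets, and Prf1 at 17.2 against 1.76 from 48 and 6 UMIs. Of the 227 Gzma UMIs of the expanded cells, 107 came from 1 clonotype of 13 cells, in which 1 cell held Gzma after thinning, and the highest Gzma count of any CD4 T cell at day 19 was also 107. Gzmb, at 560 and 421 CPM (0.41), and Gzmk, at 26.1 and 20.9 (0.32, -0.17 to 0.82), were not called. As sets were left out their ratios ran from 0.02 to 1.09 and from -0.47 to 1.86, and Gzmm had 1 and 0 UMIs. The 1 member called stands beside 1.16% of 6700 genes, and 0 were called without the cells with myeloid UMIs, where the ratio of Gzma was 0.65. At day 13 there were 23 expanded CD4 T cells against 452 single cells. Gzma was at 240 and 107 CPM (1.17), Gzmb at 960 and 495 (0.96) and Gzmk at 48.9 and 42.7 (0.20), and Prf1 and Gzmm had 0 UMIs in the expanded and 22 and 10 in the single cells. The 1 member called, Gzma, stands beside 11.5% of 5796 genes, and its sign changed under 4 other settings. The signs of Gzmb and Gzmk also changed under 4 each, with ratios of -0.28 to 1.62 and -1.69 to 0.82 as sets were left out, so no direction is read from these 23 cells.

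The other granule genes came from lists that were chosen with earlier results known. Granzymes C to G, which lie beside Gzmb on chromosome 14 in the mouse, were higher in CD8 T cells at day 19: 5 of 5 tested were called, with a median log2 ratio of 3.84, and Gzmf went from 43.0 to 1011 CPM and Gzmc from 34.5 to 493. Among terminal-like against progenitor-like cells at day 19 the same 5 were called, beside 6.63% of all genes, and Gzmn had no UMI in either state. There Nkg7 (1.26) was the 1 of 6 matrix and processing genes called and Ifng (2.53) the 1 of 4 death ligands and cytokines. Serpinb6b, a serpin, was lower (-1.20), the 1 of 3 inhibitors tested, and Zeb2 (1.34) and Id2 (1.17) were higher of 4 transcription factors tested. None of 5 release genes tested was called. None of the 6 granule matrix and processing genes (Srgn, Ctsc, Ctsw, Nkg7, Lamp1 and Cst7), 7 release genes, 5 inhibitors, 4 death ligands and cytokines or 6 transcription factors was called between the days in CD8 T cells, beside 3.25% of all genes. In expanded against single CD8 T cells at day 19, Nkg7, a granule membrane protein, had 1.23 and Cst7, which inhibits the cathepsins that activate granzymes, 1.09, so that 2 of 6 matrix and processing genes were called, beside 6.48% of all genes. The other granzymes were called in 5 of 5 tested. Of the release genes Stx11 (syntaxin 11), at 1.03, was the 1 of 7 called, and of the inhibitors Serpinb6a, at 1.60, the 1 of 3 tested. Of the death ligands and cytokines, Ifng (interferon gamma) had 1.82 and was the 1 of 4 called. Of the transcription factors Id2 had 1.25 and Prdm1 (Blimp-1) 1.26, and Eomes, a T-box factor of memory and NK cells, had -1.46 (16.2 against 44.8 CPM), which makes 2 higher and 1 lower of 6.

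The CD8 T cells were also split at the median UMI count of single antibody tags. Those with more CD279 (PD-1) had ratios of 0.51 and 0.47 for Prf1, 0.26 and 0.35 for Gzma, 0.24 and 0.28 for Gzmb and 0.21 and 0.38 for Gzmk, smaller than the ratios by Pdcd1 RNA, and Gzmm had 0.20 and -0.48. Gzma was higher in 3 of 4 sets at day 13 and in 2 at day 19. An isotype control tag, IgG1, gave positive ratios for the same 4 members at day 19 too, with 0.42 for Prf1, 0.35 for Gzma, 0.24 for Gzmb and 0.18 for Gzmk, but at day 13 it gave 0.10, -0.12, -0.03 and -0.06. With CD44, a marker of antigen experience, Prf1 had 0.38 and 0.50 but Gzma -0.25 and -0.99 and Gzmk -0.38 and -0.29, while Gzmb had -0.40 and 0.12 and Gzmm 0.15 and -0.71. With CD366 (TIM-3), KLRG1 and CD107a the ratios of the 5 members lay between -0.64 and 0.48. The CD8 T cells with more CD62L, a lymph node homing receptor, than the median had less of 4 members than the rest in 4 of 4 sets on both days, with ratios of -0.93 and -1.68 for Prf1, -1.59 and -1.16 for Gzma, -1.05 and -1.16 for Gzmb and -1.28 and -1.06 for Gzmk. Gzmm had 0.19 and 0.88. The median of this tag was only 3 and 2 UMIs, the CD62L-high cells were shallower (7028 against 8173.5 and 8942 against 10950 UMIs), and the isotype control tags gave ratios between -0.85 and 0.42.

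As a description over 40 sums of class, state, day and set, which share cells, libraries and depth, the gene most like Prf1 among 7790 genes was Thy1 (Pearson r of log2 of CPM plus 1, 0.90), followed by Cd3g (0.86) and Nkg7 (0.85). Gzmk was most like Atp8b4 (0.87), Pik3cd (0.86) and Themis (0.86), and Gzmm most like Ablim1 (0.82), Jak1 (0.82) and Eomes (0.78). Gzma was most like Sema4a (0.72), Mctp2 (0.71) and Itgb1bp1 (0.68), and Gzmb most like Ptk2b (0.76), D16Ertd472e (0.75) and S100a6 (0.74). Among the members the highest r was that of Gzma with Gzmk (0.73) and the lowest that of Gzmb with Gzmm (0.06).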

How the data were processed

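RNA, 138 antibody tags and TCR contigs were measured in 2 captures. The values deposited by the authors are raw UMI counts of each gene or tag in each barcode, from Cell Ranger 4 according to the headers. The submitters' processing notes name Cell Ranger 4.0.0, STAR 2.7.5c, bcl2fastq 2.20, Seurat, R 4.1.2 and mm10. The deposited TCR tables give UMI counts per assembled contig, 4 tables per day. UMIs were summed per group, scaled to CPM of all gene UMIs and compared as log2 ratios with exact 95% Poisson intervals. A sum of 0 was set to 3 counts. Shares used UMIs thinned to 5000 per cell and exact binomial (Clopper-Pearson) intervals. Scripts ran in Python 3.11.15 with numpy 2.4.6, scipy 1.17.1 and pandas 2.3.3. Counts for the CD8 comparison of days (10638 genes) were also simulated from the Poisson model that the intervals assume. In them 95.7% of intervals held the true ratio, and 193 of 200 changed genes and 1 unchanged gene were called. This checks the calculation only, since the simulation held no spread between cells, sets or animals. No doublet caller was run, and results were recomputed without the 5% of cells with the most UMIs. Members, states and lists were chosen with earlier results of these data known. The text names all 5 members in each comparison, the fixed lists by count with the genes called (for CD8 T cells by day and, at day 19, terminal-like and expanded CD8 T cells), and the 3 genes most like each member. Alternatives covered the UMI and mitochondrial limits, class rules, scaling, depth, cycling and myeloid-marked cells, chains, clone size and each set left out.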

Additional observations from a re-analysis of the deposited data

Results flagged for a closer look

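Granzyme B in CD8 T cells of day 19 was at 752.4 CPM in set 1 and at 1566 to 1594 in the other 3 sets. The gap to the nearest set was 0.967 of the whole range, above Dixon's 95% critical value for 4 values. Of 20 such groups of sets examined this was the 1 that passed, and chance flags about 1 in 20.

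Outside the contig sets lay a few cells with at least 2 UMIs of Ncr1 or Klrb1c, which mark NK cells, and no T cell mark, 23 at day 13 and 27 at day 19. They took no part in the comparisons, and their levels stood above those of the myeloid-marked cells outside the sets. Prf1 was at 536.3 CPM at day 13 and 523.9 at day 19, against 5.07 and 8.58 in the myeloid-marked cells. Gzma was at 6394 and 5459 CPM against 52.6 and 163, and Gzmb at 2921 and 3478 against 29.7 and 31.5. Gzmk, at 15.6 and 10.5 CPM, and Gzmm, at 5.21 and 6.98, rested on 1 to 3 UMIs each. The 3102 and 1062 cells with a T cell mark outside the sets had Prf1 at 28.6 and 65.4 CPM and Gzma at 309 and 222. Gzmb was at 750 and 875 CPM in them, Gzmk at 131 and 55.7 and Gzmm at 6.02 and 2.99.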

How the results depend on the processing

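No paired analysis was possible because the days share no labelled replicate, the contig sets carry no pairing between days, and no test was run. Of 1213 log2 ratios under other settings 765 stayed within the main value's counting interval, 442 moved out of it and 6 were called ratios that changed sign. Of 379 with 1 set left out the numbers were 231, 147 and 1. Sign changes of ratios that were not called are not counted apart. Of 260 counts of called members under other settings 224 stayed within 1.5 times the main count, and 73 of 80 with a set left out. The states from unthinned UMIs and the further thinning draws were added after seeing the data. Over both classes and days, 31 of 40 pairs were found together above their product, 30 without thinning and 29 with at least 2 UMIs. With class from antibody tags, which placed 11 and 54 cells as CD4, the ratio of Gzmk in CD8 against CD4 at day 13 was -0.61 and that of Gzma by Foxp3 at day 13 was 1.01. Gzma by Foxp3 at day 19 was 0.42 without cells with myeloid UMIs. Gzma in expanded CD4 T cells at day 13 was -4.36 with 2 coreceptor UMIs, -0.84 with 8000 UMIs, -2.56 to 1.83 as sets were left out and -2.21 without cycling cells. The number of members called changed as follows. CD8 by day was 1 when thinned and without cycling cells. CD4 by day was 1 with 2 coreceptor UMIs, with 8000 UMIs and without cycling cells (there Prf1), and 0 by tags. CD8 against CD4 at day 13 was 3 by tags. By Foxp3, day 13 was 0 by tags, and day 19 was 1 by tags and without cells with myeloid UMIs, and ran from 1 to 3 as sets were left out. By Pdcd1 at day 13 it was 2 with 8000 UMIs. Expanded CD8 at day 13 was 2 with 8000 UMIs, and at day 19 ran from 2 to 4 as sets were left out. Expanded CD4 at day 13 was 2 when thinned, with 2 coreceptor UMIs and without cycling cells, 0 with 3000 UMIs, by tags and with clone size over all contig barcodes, and up to 2 as sets were left out. At day 19 it was 2 with no UMI minimum, 0 without cells with myeloid UMIs and 1 to 2 as sets were left out. Progenitor-like by day was 2 when thinned, by tags, in thinning draws 2, 3, 4 and 5, without myeloid-marked, cycling or the deepest 5% of cells, and 2 to 4 as sets were left out. Terminal-like by day was 1 by tags, with no UMI minimum, in barcodes with 1 TRA and 1 TRB chain, with unthinned states, in draw 3 and without myeloid-marked or cycling cells, and 0 to 1 as sets were left out. The cause of these changes was not tested. Depth limits Gzmm above all, with 371 and 117 UMIs in all CD8 T cells.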
